A study of Mus musculus with 36 samples.

Results

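The second day of retinoic acid (RA) was compared with the first in mouse embryonic stem cells, using the samples labelled day 1 and day 2 with RA, which make up 5 of the 18 RNA samples of the series and 10 of its 36 arrays. All samples came from Oct4:eGFP cells, a line in which green fluorescence reports the Oct4 (Pou5f1) gene, and each RNA was read on 2 Affymetrix arrays, MG_U74Av2 (chip A) and MG_U74Bv2 (chip B). RA cells were plated on gelatin without leukemia inhibitory factor (LIF), the cytokine that sustains self-renewal, and with 0.1 uM RA. They were sorted by fluorescence after 1 day into high, medium and low Oct4 gates (3 RNA samples), or after 2 days into medium and low gates (2 RNA samples). The control arm held 3 RNA samples (2 from the high gate and 1 from the medium gate), kept in 1000 U per mL LIF and collected 2 days after plating. Cells without LIF and without RA (days 1, 3 and 5) served only to estimate the spread between libraries and the shift between scan days. Several features limit the comparison. A second day of RA is also a second day without LIF, and these cannot be told apart. Day 2 cells were plated at a lower density than day 1 cells, the only day 2 sample without RA was the control with LIF, and the labels do not say that samples came from separate cultures or that gate bounds were the same on both days. Routine culture was on mitomycin-treated embryonic fibroblasts, RNA went through 2 cycles of amplification, and fewer cells of a type cannot be told apart from less RNA per cell.

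RA is a small lipid made from vitamin A that enters the nucleus and binds RA receptors (Rara, Rarb, Rarg), which pair with retinoid X receptors on DNA. Genes near these sites, among them the 3' Hox genes and Cyp26a1, the enzyme that degrades RA, respond within hours. The later response of embryonic stem cells to RA includes loss of Oct4 and, depending on dose and culture, the appearance of neural or primitive endoderm cells.

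Promoter stretches of 3 retinoid genes are shown because 2 of them were already high on the first day and the third rose on the second. They are RefSeq windows of GRCm38.p6, 5′ to 3′ on the gene's strand, and end at the base before the annotated start. Capitals mark the receptor motifs AGGTCA or AGTTCA on either strand. Cyp26a1 and Stra8, a gene induced by RA, were high on day 1, and Crabp1, an RA-binding protein of the cytoplasm, rose on day 2. The windows lie at chr19:37697708-37697807 (+) for Cyp26a1, chr6:34920748-34920947 (+) for Stra8 and chr9:54764648-54764747 (+) for Crabp1.
Cyp26a1: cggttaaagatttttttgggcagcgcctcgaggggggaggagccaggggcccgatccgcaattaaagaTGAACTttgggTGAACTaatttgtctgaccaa
Stra8: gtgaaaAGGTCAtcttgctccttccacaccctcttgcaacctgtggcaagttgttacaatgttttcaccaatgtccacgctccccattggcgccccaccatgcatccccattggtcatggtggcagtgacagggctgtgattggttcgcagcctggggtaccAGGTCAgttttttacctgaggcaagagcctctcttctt
Crabp1: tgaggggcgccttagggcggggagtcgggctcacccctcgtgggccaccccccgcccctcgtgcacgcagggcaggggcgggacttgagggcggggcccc

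The Cyp26a1 window holds AGTTCA as a direct repeat with 5 bases between, on the opposite strand, starting 32 bases before the start. Over all 32851 promoter windows of the table (250 bases before to 50 after a start, both strands), 8 hold that repeat (0.0244%) and 3 hold the same repeat of AGGTCA (0.00913%). A single AGGTCA lies in 16.3% and a single AGTTCA in 14% of the windows, and 27.7% hold either motif. Stra8 holds AGGTCA starting 194 and 38 bases before the start, and the Crabp1 window holds neither motif. The windows of Dhrs3, Hoxb1 and Hoxa2, which were also above control on day 1, hold neither as well. Rara, Rarb, Rarg and Hoxb4 hold a single motif in at least 1 window each, and Meis1 holds neither. Whether a motif goes with an early or a late change was not tested. Of 14 retinoid and Hox genes looked up, 11 had a window, and Crabp2, Hoxb2 and Cdx1 did not.

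Array signals were compared as log2(signal + pseudocount), called the log2 level here. A linear model (limma) with terms for arm and Oct4 gate was fitted per chip, and a probe set is called past the test at a Benjamini-Hochberg adjusted p under 0.05 over all tested probe sets of its chip. The fit used 17 of the 18 RNA samples. The second high gate library of the arm labelled day 1 without LIF was left out because it carried RA-induced genes against its label. It belongs to neither day compared. Of 14900 probe sets, 745 passed (5.00%), 402 higher and 343 lower on day 2, and with all 18 libraries 192 were higher and 166 lower. With 1 probe set per gene, 530 of 9833 genes passed (5.39%), 289 higher (2.94%) and 241 lower (2.45%). The 3 day 1 and 2 day 2 libraries did not overlap in 4541 genes (46.2%), so the absence of overlap alone says little.

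The log2 difference between day 2 and day 1 exceeded 1 in size for 185 of the 530 genes and exceeded 2 for 18. The median over all genes tested was 0.0002. All 530 genes moved the same way in the medium pair and in the low pair of libraries, a sign that the choice of called genes favours. Their median absolute difference was 0.77 in the medium gate and 0.96 in the low gate, against 0.26 and 0.30 over all genes. The low gate difference was the larger in 363 of the 530 (68.5%), and in 54.8% of all genes. Each pair is 1 library against 1, so the difference between gates was not tested.

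Several technical features moved with the day. All day 1 arrays with RA were scanned on one day and both day 2 samples on another. The days shared no chip lot either, on chip A or on chip B. Neither scan day nor chip lot can thus be told apart from day of RA. The log2 ratio of 3' to 5' Gapdh signal, which rises as RNA shortens, was 1.11 to 1.45 on the chip A arrays of day 1 and 0.62 to 0.84 on those of day 2. On chip B it was 1.17 to 1.35 and 0.84 to 0.98, and the Actb ratio did not overlap between days on either chip. With the Gapdh ratio as a covariate, 2 probe sets were higher and 3 lower past the test, while 528 of the 530 genes kept their direction at a median size of 0.98 of the first and with standard errors a median of 2.00 times as large. With the Actb ratio as the covariate 46 were higher and 58 lower, all 530 genes kept their direction at a median size of 0.95 of the first, and 50 of them passed. LIF-withdrawal libraries scanned on the same days give a measure of the shift between scans (mean of days 1 and 5 minus day 3, which assumes a linear course). Where a gene did not change evenly over days 1, 3 and 5 without LIF, that change is part of the measure too. An even change cancels, so a small shift does not mean that a gene was level without LIF. After the measure was subtracted, 502 of the 530 genes kept their direction and 179 passed.

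**Figure D1:**
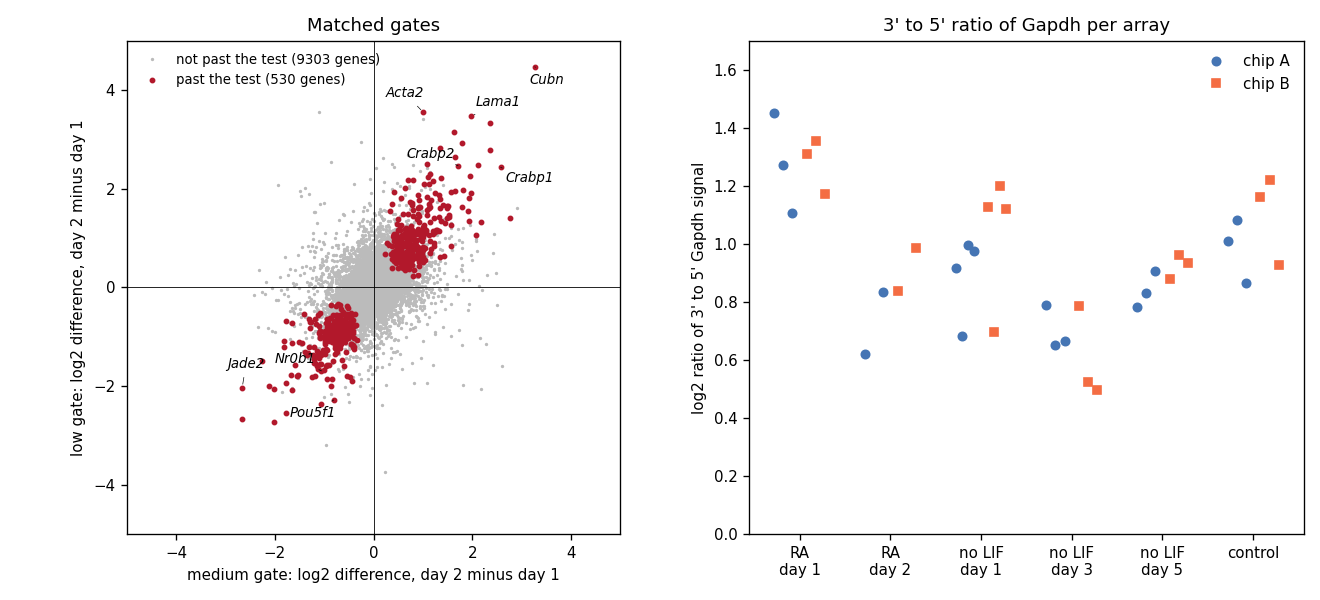
Left, log2 difference between day 2 and day 1 of RA in the medium gate (x axis) and in the low gate (y axis), 1 point per gene, with the 530 genes past the test in red. Right, log2 ratio of 3' to 5' Gapdh signal for each array (y axis) by arm, chip A in blue circles and chip B in orange squares. The called genes lie in the quadrants where both gates moved the same way, and the day 1 arrays with RA lie above those of day 2 on both chips.

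The time points address which genes respond on the first day and which only later. Cyp26a1, Dhrs3, Stra8 and Hoxb1, far above control on the first day, had no called difference on the second in the model as fitted. On the second day 2 RA-binding proteins rose, as did 1 of the 2 tested probe sets of an enzyme that makes the precursor of RA. Of 8 measured genes of retinoid metabolism, binding and response 3 rose, none fell and the median difference was 0.20. None of 10 measured receptors and coregulators passed in either direction (median -0.23), nor did any of 12 Hox, Cdx, Meis and Pbx genes (median 0.20). Over all genes 2.94% were called higher and 2.45% lower. In this list and those below, 1 or 2 called members therefore say little about a list as a whole.

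Cyp26a1 had log2 levels of 3.84, 4.65 and 4.06 in the 3 controls, 6.86, 6.71 and 6.46 in the high, medium and low gates of day 1, and 5.86 and 6.31 in the medium and low gates of day 2. The day 2 libraries lay below those of day 1 and above the controls. The difference from day 1 to day 2 was -0.54 ± 0.21 (standard error; limma adjusted p = 0.159), with an unadjusted 95% interval of -0.996 to -0.074, after 2.55 ± 0.19 from control to day 1 (limma adjusted p = 2.42e-06). In the LIF-withdrawal libraries Cyp26a1 shifted by 2.62 between the same scan days, and with that subtracted its difference from day 1 to day 2 was -3.16 ± 0.27 and past the test (limma adjusted p = 3.86e-05). Without LIF its means were 4.1, 4.7 and 10.6 on days 1, 3 and 5, not the linear course that the subtraction assumes. The subtracted value therefore cannot show whether Cyp26a1 fell.

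Dhrs3, a retinaldehyde reductase that limits RA production, stood at 6.07, 6.22 and 5.85 on day 1 and at 6.05 and 5.77 on day 2, against 4.12 to 4.62 in controls. The days overlapped, and the 95% interval of their difference was -0.44 to 0.42. Stra8 stood at 8.51, 8.29 and 8.48 on day 1 and at 8.45 and 8.14 on day 2, but its controls spread from 4.23 to 6.87, so its interval was wide (-1.30 to 0.99).

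Hoxb1, a 3' Hox gene that patterns the hindbrain, stood at 8.46, 7.92 and 8.03 on day 1 and at 8.36 and 7.65 on day 2, against 4.56 to 5.02 in controls. Its days overlapped, with a 95% interval of -0.70 to 0.56 around a difference of -0.07 ± 0.29. Hoxb2 stood at 9.93, 9.75 and 9.92 and then at 10.40 and 10.23, where the 2 later libraries were the highest. Its difference of 0.52 ± 0.19 did not pass (limma adjusted p = 0.154), and neither did Hoxa2 (0.29 ± 0.22) or Hoxb6 (0.61 ± 0.26). Meis1, a Hox cofactor, lay below the brightness filter with levels of 3.90, 4.76 and 3.97 on day 1 and 5.75 and 6.34 on day 2. In the fit of all probe sets without a filter its difference was 1.76 ± 0.29 (limma adjusted p = 0.0112). Hoxb4 (0.83 ± 0.23, limma adjusted p = 0.0904), Cdx1 and Rarb were also below the filter and did not pass there.

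Crabp1 did not differ past the test from control on the first day and was high on the second. Its log2 levels were 6.55, 6.30 and 6.51 in controls, 6.29, 6.24 and 6.68 on day 1, and 8.82 and 9.11 on day 2. Both later libraries lay more than 2 log2 units above every other one named here. The rise was 2.58 ± 0.23, or 5.96-fold (limma adjusted p = 0.000279), and the fitted difference between control and day 1 was -0.02 ± 0.21.

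Crabp2, which carries RA to its receptors, stood at 5.48, 6.44 and 6.12 on day 1 and at 8.15 and 8.58 on day 2, against 5.04 to 5.07 in controls. It rose by 2.31 ± 0.22 (limma adjusted p = 0.000359), after a first-day rise of 0.92 ± 0.20, and was no longer past the test with all 18 libraries (adjusted p = 0.0998). Rdh10, which makes the retinaldehyde from which RA is formed, stood at 7.95, 7.90 and 7.91 and then at 9.15 and 9.08. Its libraries of 1 day lay within 0.10 of each other, and it rose by 1.23 ± 0.16 (limma adjusted p = 0.00283). A second probe set of Rdh10 differed by only 0.0148, and of its 4 probe sets only 2 were tested. The scan-day shift without LIF was small for these genes, 0.12 for Crabp1, -0.20 for Crabp2 and -0.18 for Rdh10. An even change over days 1, 3 and 5 cancels in that value. Means on those days without LIF or RA were 5.6, 5.9 and 6.4 for Crabp1 and 4.7, 5.2 and 5.4 for Crabp2. For Rdh10 they were 7.8, 8.8 and 9.4, so by day 5 it reached its day 2 level with RA (mean 9.1) without RA too.

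Among the receptors, Rarg stood at 7.33, 7.03 and 7.13 on day 1 and at 6.64 and 6.02 on day 2. The difference of -0.78 ± 0.22 lay just short of the threshold (limma adjusted p = 0.0508). Rxrb, a partner of the RA receptors, had -0.67 ± 0.19 (adjusted p = 0.0578), and Rara had -0.43 ± 0.17. Ccnd2, a D-type cyclin, was higher than control on day 1 by 4.05 ± 0.37 and had a difference of -1.06 ± 0.40 to day 2 that did not pass.

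**Figure D2:**
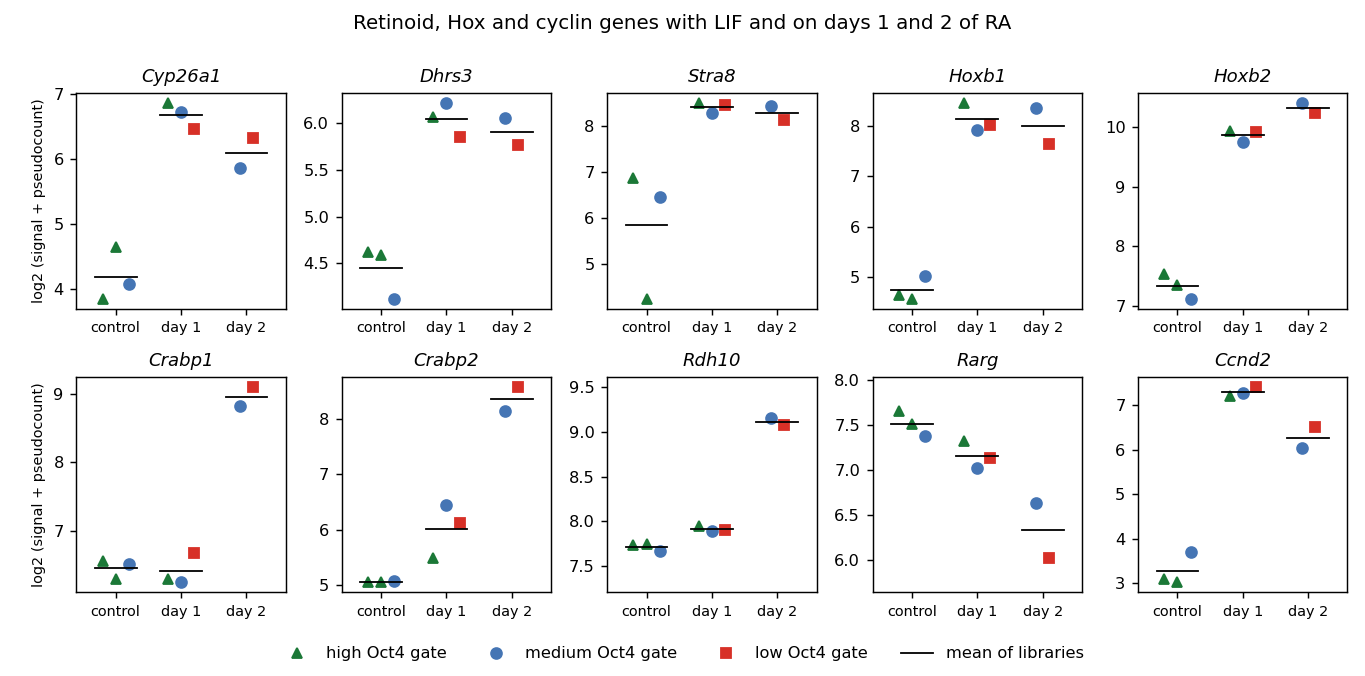
Log2 level (y axis) of 10 genes in each control, day 1 and day 2 library with RA (x axis), with green triangles for the high, blue circles for the medium and red squares for the low Oct4 gate and a line at the mean of the libraries. Cyp26a1, Dhrs3, Stra8 and Hoxb1 were above control on both days with no called difference between days in the model as fitted, while Crabp1, Crabp2 and Rdh10 stood highest on day 2.

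Genes of primitive and visceral endoderm, the extraembryonic layers that line the yolk sac and deposit basement membrane, were the list with the highest median. Among its 22 measured genes, 11 rose, none fell and the median difference was 0.99. The members that rose were Col4a1, Col4a2, Cubn, Dab2, Fst, Gata6, Lama1, Lamc1, Lrp2, Plat and Sparc. Foxa2, Hnf4a, Afp, Gata4 and Sox7 did not pass.

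Cubn, an endocytic receptor of visceral endoderm and kidney, had the largest rise. Its levels were 4.70, 4.56 and 4.78 on day 1 and 7.83 and 9.25 on day 2, with controls at 4.63 to 4.97. It rose by 3.55 ± 0.55 (limma adjusted p = 0.00288), but a second probe set of Cubn differed by only -0.10. Dab2, an adaptor that works with such receptors, rose by 2.04 ± 0.47 (limma adjusted p = 0.0229), from 5.78 to 6.58 on day 1 to 8.21 and 8.92. Its other probe sets reached down to -0.20, and its call was lost with all 18 libraries (adjusted p = 0.052).

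Several of these genes encode basement membrane. Lama1, the laminin chain that embryonic endoderm lays down, stood at 7.03 to 7.27 in controls, at 5.27, 5.33 and 5.00 on day 1, and at 7.30 and 8.47 on day 2. It fell by 2.22 on the log2 scale on the first day and rose by 2.53 ± 0.41 on the second (limma adjusted p = 0.0042). The scan-day shift without LIF was 0.68, and after subtracting it the difference was 1.84 and lay short of the threshold (adjusted p = 0.0564). Col4a1, a collagen IV chain, stood at 7.03, 6.88 and 6.95 and then at 8.53 and 9.59. It rose by 1.92 ± 0.27 (limma adjusted p = 0.00168), and Col4a2, its partner chain, by 1.56 ± 0.23. Sparc, a matrix-binding glycoprotein, stood at 6.64, 6.82 and 6.60 and then at 7.97 and 8.90, a rise of 1.67 ± 0.22 (limma adjusted p = 0.00143). Serpinh1, the chaperone of collagen folding, rose by 2.05 ± 0.26 (limma adjusted p = 0.00113) from 6.78 to 7.05 on day 1 to 8.89 and 9.30. Without LIF or RA, means on days 1, 3 and 5 were 6.0, 7.6 and 8.8 for Col4a1 and 6.4, 7.2 and 8.2 for Col4a2. They were 7.3, 7.4 and 8.8 for Sparc, 6.0, 7.3 and 9.2 for Serpinh1 and 6.1, 5.8 and 6.8 for Lama1.

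Over the matrix and basement membrane list, which shares Col4a1, Col4a2, Lama1, Lamc1 and Sparc with the endoderm list, 8 of 23 measured genes rose and none fell (median 0.46). The fibronectin gene Fn1 (-0.14 ± 0.19) and Col1a2 (-0.14 ± 0.15) did not pass.

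Gata6, a transcription factor that specifies primitive endoderm, was at 5.13, 4.74 and 5.15 in controls, 4.33, 4.17 and 4.28 on day 1 and 5.20 and 5.40 on day 2. It rose by 0.99 ± 0.19 (limma adjusted p = 0.0104) to about the level of the controls. Its difference between day 2 and control was 0.16. Gata6 still passed with all 18 libraries (limma adjusted p = 0.0244). Once its scan-day shift was subtracted, its difference was 0.74 and did not pass (limma adjusted p = 0.0962). Gata6 was past the test in 6 of the 15 other settings that included it. Sox17, another endoderm factor, stood at 5.10, 4.87 and 4.70 and then at 6.004 and 7.035. Its difference of 1.60 ± 0.46 lay short of the threshold (limma adjusted p = 0.0564). Gata4 stood at 6.14 to 7.23 on day 1 and at 6.81 and 6.62 on day 2, with a difference of 0.10 ± 0.27, and its second probe set differed by 1.16.

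Levels of endoderm and matrix genes were higher in the low than in the medium gate of day 2 for Cubn, Lama1, Col4a1 and Sparc, as the values above show. The summed signal of the 22 endoderm genes was 3340 to 3822 in the day 1 libraries, 5747 and 7962 in the medium and low gates of day 2, and 5094 to 5923 in controls. The summed level of the list in the medium gate of day 2 thus lay within the range of the controls.

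Some simple epithelial genes also rose. Of 18 measured genes of simple epithelium and trophoblast 6 rose and none fell (median 0.45): Anxa1, Anxa2, Anxa3, Igf2, Krt8 and Krt18. Krt18, a keratin of simple epithelia, stood at 6.71, 7.81 and 7.28 on day 1 and at 8.22 and 9.21 on day 2. It rose by 1.29 ± 0.25 (limma adjusted p = 0.0109) after a first-day rise of 1.16 ± 0.23, and Krt8, its partner, rose by 1.14 ± 0.31 (limma adjusted p = 0.0472). Both keratin calls were lost with all 18 libraries (adjusted p = 0.0785 and 0.181). Anxa3, a membrane-binding annexin, rose by 2.43 ± 0.30 (limma adjusted p = 0.00113), from 6.56, 7.54 and 7.01 to 9.32 and 9.95. Igf2, an imprinted growth factor, stood at 8.10, 9.56 and 8.70 and then at 10.64 and 11.20. Its rise of 1.85 ± 0.28 (limma adjusted p = 0.00276) was no longer called with all 18 libraries (adjusted p = 0.0761). Without LIF or RA, means on days 1, 3 and 5 were 6.2, 8.2 and 10.3 for Krt18 and 6.8, 8.6 and 11.2 for Krt8. They were 5.7, 7.5 and 9.5 for Anxa3 and 7.4, 8.5 and 11.1 for Igf2. The trophoblast regulators Eomes, Tfap2c and Hand1, chosen after their values were seen, did not pass, with differences of 0.12, -0.75 and -0.18.

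Neural progenitor genes moved in part. Of 17 measured members 4 rose and none fell (median 0.47). Cdh2 (N-cadherin), an adhesion molecule of neural and mesodermal cells, stood at 3.27 to 3.67 in controls, 6.01, 5.96 and 5.85 on day 1 and 7.77 and 7.82 on day 2. It rose by 1.83 ± 0.20 (limma adjusted p = 0.00085) after 2.39 ± 0.18 on the first day. Its scan-day shift without LIF was 1.20, and the call was lost once that was subtracted (adjusted p = 0.18). Its means without LIF were 4.1, 4.9 and 8.1 on days 1, 3 and 5. A rise by day 5 and a shift between scans cannot be told apart in that value. Ncam1, a neural cell adhesion molecule, was at 6.53, 6.26 and 6.19 and then at 7.74 and 7.81, a rise of 1.42 ± 0.17 (limma adjusted p = 0.00111), against 0.50 in its second probe set. Hes1, a Notch target, rose by 0.82 ± 0.19, and its scan-day shift was as large (0.86). Its means without LIF were 7.0, 7.4 and 9.4 on days 1, 3 and 5, so the same limit holds. Gli2, a mediator of hedgehog signals, rose by 0.90 ± 0.22 to about its control level. The defining neural factors Sox1 (0.37 ± 0.32) and Pax6 (-0.64 ± 0.33) did not pass. Of 14 early neuron genes none rose and 2 fell (median 0.11): Elavl3, a neuronal RNA-binding protein, by 1.91 on the log2 scale and Nefl, a neurofilament subunit, by 1.44 on the log2 scale. Both shifted the same way between scan days without LIF (-1.27 and -1.67), and neither was called once that was subtracted. Their means on days 1, 3 and 5 without LIF were 8.0, 8.1 and 5.7 for Elavl3 and 8.2, 9.1 and 6.7 for Nefl. Pdgfra, a growth factor receptor of mesoderm and primitive endoderm, was the only one of 13 streak and mesoderm genes to pass (1.30 ± 0.34). It had a probe set of opposite sign and a scan-day shift of 1.91, with means without LIF of 4.2, 4.5 and 8.6 on days 1, 3 and 5.

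**Figure D3:**
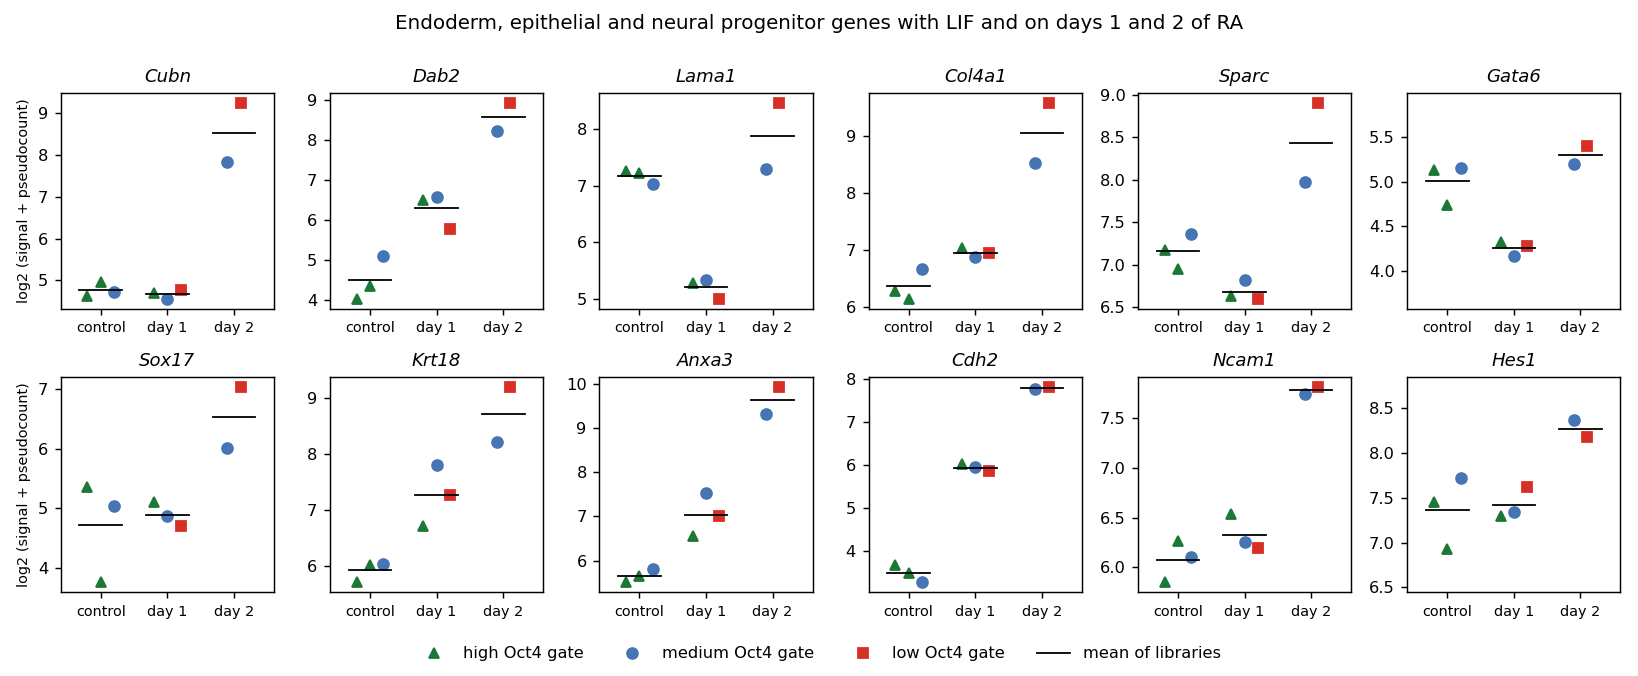
Log2 level (y axis) of 12 genes in each control, day 1 and day 2 library with RA (x axis), with green triangles for the high, blue circles for the medium and red squares for the low Oct4 gate and a line at the mean of the libraries. All panels show both day 2 libraries above every day 1 library, as in 2249 of all 9833 genes. Most panels show genes named for a large rise or a low p-value, which favours this. For Lama1, Sparc and Gata6 the day 1 libraries also lay below the controls.

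The fibroblast feeder and mesenchyme list was measured because the cells were routinely grown on feeders. Of its 17 measured genes 4 rose and none fell (median 0.43): Acta2 and Tagln, both of the contractile cytoskeleton, Cald1, which binds actin, and Ccn1, a secreted matrix protein. Acta2 stood at 5.02, 5.87 and 5.02 on day 1 and at 6.87 and 8.57 on day 2, a rise of 2.23 ± 0.41 (limma adjusted p = 0.00747). The fibrillar collagen genes Col1a1 (0.56 ± 0.22) and Col1a2 and the surface marker Thy1 (-0.08 ± 0.55), chosen after their values were seen, did not pass. The summed signal of the list was 2518 to 2870 in controls, 3129 to 3724 on day 1 and 4493 to 5899 on day 2. Its sum and that of the endoderm list were both higher on day 2 than on day 1, whereas from control to day 1 its sum was higher and that of the endoderm list lower. No member was at 0, and the part of feeder cells in the result was not tested. Among 7 blood and endothelium genes none rose and Pecam1, which embryonic stem cells also express, fell by 0.93 on the log2 scale.

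Part of the pluripotency network fell on the second day, Pou5f1 included, and Nanog and Sox2 did not pass the test. Of 29 measured genes 10 fell and 1 rose, and the median difference was -0.54. The members that fell were Pou5f1, Nr0b1, Fgf4, Phc1, Dppa3, Dppa4, Nr5a2, Tcea3, Tdgf1 and Utf1. Lin28a, an RNA-binding protein, rose by 0.85 ± 0.20 (limma adjusted p = 0.0405), named here after its value was seen.

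Pou5f1, which encodes Oct4, stood at 11.47, 11.22 and 11.27 in controls, 10.77, 10.05 and 10.45 in the high, medium and low gates of day 1, and 9.24 and 8.17 in the medium and low gates of day 2. The low gate did not have the lowest level on day 1 but did on day 2. Pou5f1 fell by 1.61 on the log2 scale (standard error 0.24, limma adjusted p = 0.00258), or 3.05-fold, after a first-day fall of 0.74 ± 0.22 in size. Between the days it moved by -0.81 in the medium gate and by -2.28 in the low gate. Since the cells were sorted on an Oct4 reporter, the level within a gate also reflects where the gate was set.

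Nanog, a core pluripotency factor, was at 10.76 to 10.98 in controls, 9.95, 9.81 and 9.85 on day 1 and 10.04 and 9.26 on day 2. The days overlapped, and the 95% interval of the difference was -0.69 to 0.20 around -0.24 ± 0.21. Sox2, the partner of Oct4, stood at 11.17, 11.14 and 10.87 and then at 10.77 and 10.84, with an interval of -0.64 to 0.11. Both had fallen from control to day 1, Nanog by 1.00 and Sox2 by 0.72 on the log2 scale. Zfp42, a marker of the naive state, had -0.77 ± 0.24 (limma adjusted p = 0.0703) after -2.02 ± 0.22 on the first day. Klf4 had dropped by 3.95 on the log2 scale by day 1 and had 0.59 ± 0.30 from day 1 to day 2, which did not pass.

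Nr0b1 (Dax1), a nuclear receptor of the naive network, went down on both days. Its levels were 9.43 to 9.91 in controls, 6.98, 6.45 and 6.70 on day 1 and 5.39 and 5.01 on day 2. It fell by 1.43 ± 0.19 in size (limma adjusted p = 0.00139), against a scan-day shift of opposite sign (1.62). With all 18 libraries its adjusted p was 0.236, and that of Fgf4 was 0.212. Fgf4, the growth factor that Oct4 and Sox2 activate, stood at 8.95, 8.66 and 8.57 and then at 7.81 and 7.69, a difference of -0.93 ± 0.13 (limma adjusted p = 0.00143). Phc1, a Polycomb subunit, did not differ past the test from control on day 1 and then differed by -1.35 ± 0.22 (limma adjusted p = 0.00339), from 9.75 to 10.28 on day 1 to 8.84 and 8.29. It shifted by -0.66 between scan days without LIF, and after subtraction its difference was -0.69 (adjusted p = 0.171). Dppa3 (Stella), a germ line and naive marker, differed by -1.82 ± 0.41 (limma adjusted p = 0.0212).

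None of 15 LIF and STAT3 pathway genes passed (median 0.03). Socs3, a direct STAT3 target, was 2.65 below control on day 1 on the log2 scale and 0.39 ± 0.18 higher on day 2 than on day 1 (limma adjusted p = 0.211). Postimplantation epiblast genes were divided, with Sox4 higher and Tdgf1 and Zic5 lower among 14 measured (median -0.11). Zic5 had risen by 1.54 ± 0.19 on the first day and then differed by -1.32 ± 0.21 (limma adjusted p = 0.0109).

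**Figure D4:**
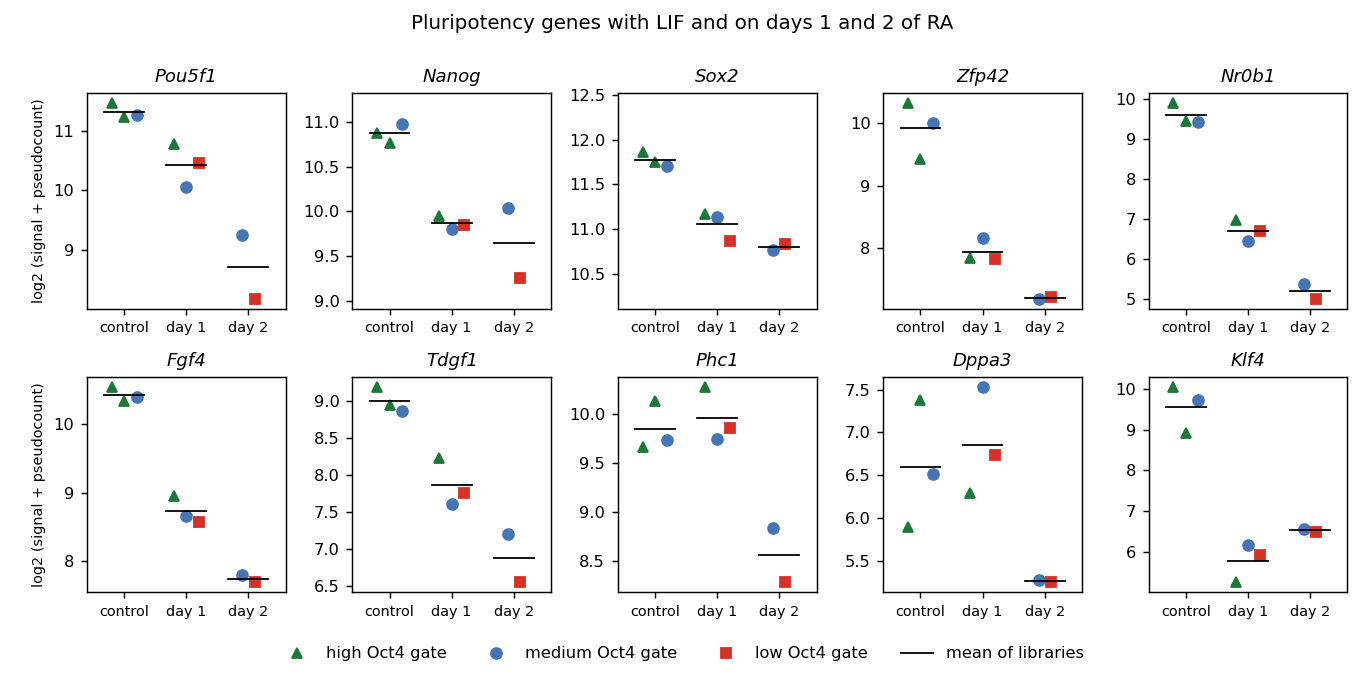
Log2 level (y axis) of 10 pluripotency genes in each control, day 1 and day 2 library with RA (x axis), with green triangles for the high, blue circles for the medium and red squares for the low Oct4 gate and a line at the mean of the libraries. Pou5f1, Nr0b1, Fgf4 and Tdgf1 were called lower on both days, Phc1 and Dppa3 on the second, and for Nanog the day 1 and day 2 libraries overlapped.

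Several interferon-response and MHC class I genes, which present antigen and restrict intracellular pathogens, rose. Among 20 measured, 9 rose and none fell (median 0.67): B2m, Gbp2, Gbp2b, Gbp3, H2-D1, Ifitm3, Igtp, Irf1 and Psmb8. Gbp2, an interferon-induced GTPase, stood at 3.88, 5.33 and 4.75 on day 1 and at 7.69 and 7.54 on day 2. It rose by 2.85 ± 0.35 (limma adjusted p = 0.00113) with a scan-day shift of 1.21, and remained past the test after that was subtracted (1.64, adjusted p = 0.0475). Under the same subtraction Gbp2b went from 1.87 to 0.48 (adjusted p = 0.598) and Gbp3 from 1.59 to 0.53 (adjusted p = 0.48). B2m, the light chain of MHC class I, was at 7.26, 7.46 and 7.54 and then at 8.75 and 8.70, a rise of 1.32 ± 0.22 (limma adjusted p = 0.00469). Its call was lost with all 18 libraries (adjusted p = 0.07). Without LIF or RA, means on days 1, 3 and 5 were 6.1, 8.0 and 10.1 for B2m and 3.7, 5.9 and 10.5 for Gbp2. Oasl2, an interferon-induced gene outside the list, rose by 2.24 ± 0.53 (limma adjusted p = 0.0392) and was past the test in 4 of 17 other settings. The regulators Irf7, Irf8 and Irf9 and the antigen transporter Tap1 did not pass.

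Some cholesterol synthesis genes, which are controlled together by sterol levels, rose. Of 18 measured 6 rose and none fell (median 0.56), and 17 had a positive difference: Dhcr7, Ebp, Lss, Msmo1, Mvd and Nsdhl passed. Nsdhl, a sterol dehydrogenase, stood at 7.33 to 8.05 in controls, 6.24, 6.40 and 6.52 on day 1 and 8.36 and 8.43 on day 2. It fell by 1.42 on the log2 scale on the first day and rose by 1.95 ± 0.20 on the second (limma adjusted p = 0.000434). Other genes of the pathway, namely Hmgcs1, Fdft1, Idi1 and Sqle, did not pass, with differences of 0.35 to 0.56.

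Glycolysis genes were split, with 1 of 19 higher and 3 lower (median 0.07). Slc2a3, a glucose transporter, rose by 1.23 ± 0.24, and Pfkp (-1.27 ± 0.23), Ldhb (-0.996 ± 0.225) and Hk1 (-0.95 ± 0.22) fell. Pfkp has probe sets of opposite sign. The replication and mitosis list was flat, with 1 of 29 higher (Mcm7, a helicase subunit, 0.60 ± 0.13) and a median of 0.01. None of 13 cyclin D and CDK inhibitor genes and none of 13 p53 targets passed. Of 21 Polycomb and DNA methylation genes Phc1 alone passed.

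Of 21 immediate early and dissociation stress genes 2 rose (median 0.10), beside 2.94% of all genes. Fos, an immediate early transcription factor, stood at 6.13, 7.47 and 7.58 on day 1 and at 8.91 and 8.88 on day 2, a rise of 1.59 ± 0.30 (limma adjusted p = 0.00961). With all 18 libraries it was no longer called (adjusted p = 0.0843). Egr1, another such factor, rose by 0.92 ± 0.22, but after subtraction of its scan-day shift of 0.72 its difference was 0.19 (adjusted p = 0.749). Both had been below control on day 1.

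Among 39 Wnt, BMP, Nodal and FGF signalling genes 4 rose and 2 fell (median 0.08), beside 2.94% and 2.45% of all genes. Wls, which carries Wnt proteins to the cell surface, was at 4.14 to 4.81 in controls, 6.73, 7.34 and 6.93 on day 1 and 8.71 and 9.14 on day 2. It rose by 1.84 ± 0.25 (limma adjusted p = 0.00143) after 2.46 ± 0.23 on the first day. With all 18 libraries it was not past the test (adjusted p = 0.0934). Its means without LIF or RA were 4.3, 6.9 and 9.0 on days 1, 3 and 5. Fst, which binds activin, rose by 2.20 ± 0.45, and Fzd2, a Wnt receptor, and Smad6, an inhibitor of BMP signals, also passed. Fgf4 fell, as did Spry2, an inhibitor of FGF signals, by 0.95 on the log2 scale. Of 15 germ line and oocyte genes Trap1a rose and Dppa3 fell.

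**Figure D5:**
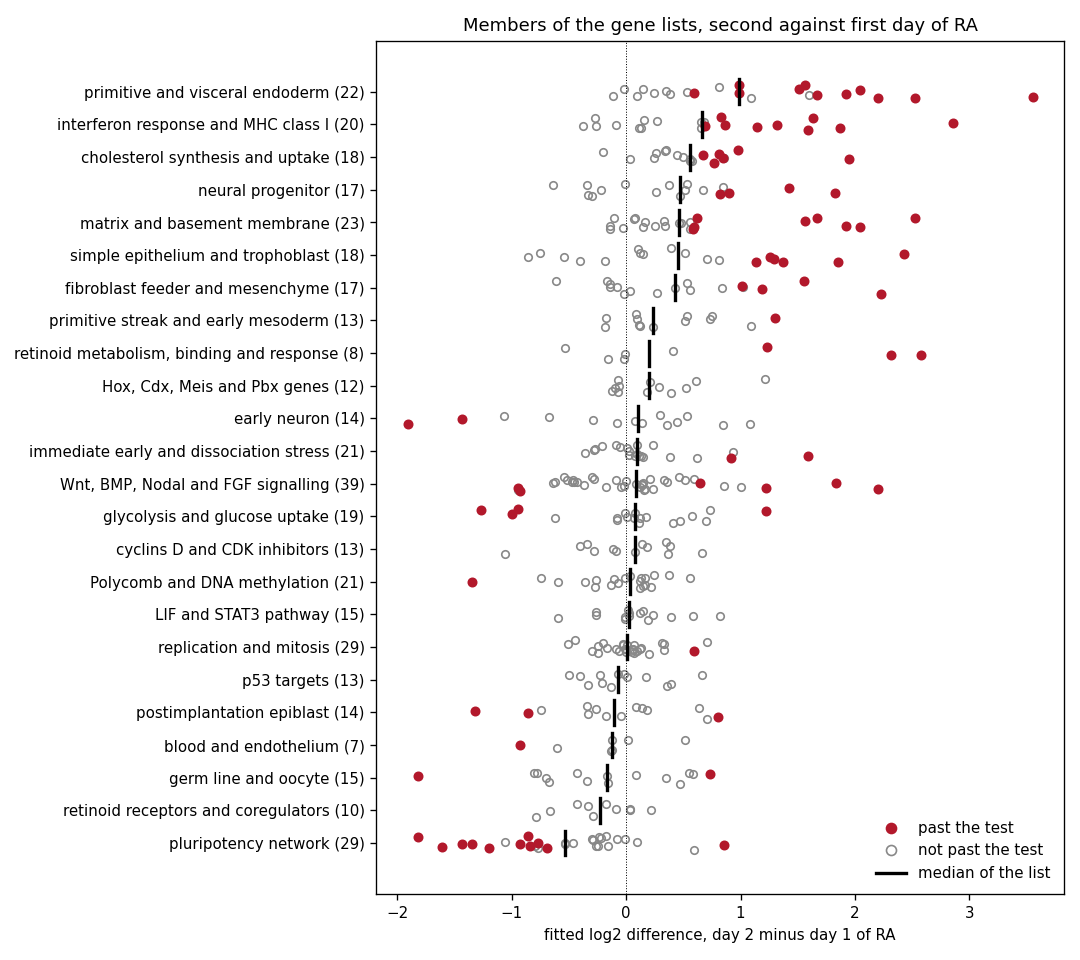
Fitted log2 difference between day 2 and day 1 of RA (x axis) for the measured members of 24 gene lists (y axis, number of measured genes in parentheses), filled red where past the test, open grey where not, with a black bar at the median of the list. The endoderm list has the highest median (0.99) and the pluripotency list the lowest (-0.54), against 0.0002 over all genes.

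The remaining genes with the largest rises or falls belong to no common list. Pmp22, a membrane protein of epithelia and myelin, rose on both days, from 3.80 to 4.36 in controls to 6.24, 6.82 and 6.13 on day 1 and 9.18 and 9.46 on day 2. Its second-day rise was 2.72 ± 0.39 (limma adjusted p = 0.00168), lost with all 18 libraries (adjusted p = 0.0799). Plagl1, an imprinted zinc finger factor, rose by 2.14 ± 0.45 after 2.55 ± 0.41 on the first day. Cpm, a membrane carboxypeptidase, rose by 1.99 ± 0.43 (limma adjusted p = 0.0281). Plagl1 and Cpm were each past the test in 5 of 17 other settings, and not with all 18 libraries (limma adjusted p = 0.146 and 0.0946).

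Jade2, a subunit of a histone acetyltransferase complex, had the largest fall. It stood at 8.24, 7.77 and 8.31 on day 1 and at 5.11 and 6.29 on day 2, and fell by 2.49 on the log2 scale (standard error 0.52, limma adjusted p = 0.0259), although its controls spread from 5.59 to 7.79. With any 1 of the 5 RA libraries left out it was no longer called. Chchd10, a mitochondrial protein, was at 11.52, 11.17 and 11.54 and then at 9.51 and 9.46, a difference of -1.83 ± 0.23 (limma adjusted p = 0.00114). Abcc4, an efflux transporter, differed by -2.01 ± 0.24 (limma adjusted p = 0.00202) and the uncharacterised gene 1700019D03Rik by -2.01 ± 0.23. Both shifted by over 1.2 in the same direction between scan days without LIF (-1.25 and -1.44), and neither was past the test after that was subtracted. On days 1, 3 and 5 without LIF, Abcc4 had means of 10.0, 9.9 and 7.2 and 1700019D03Rik 10.3, 10.3 and 7.5. A fall by day 5 and a shift between scans cannot be told apart there. 1700019D03Rik was the only named gene that passed with the Gapdh ratio as a covariate (adjusted p = 0.0337). Btbd11 (-2.47), Naprt (-2.38), which makes NAD from nicotinic acid, and Lingo3 (-1.74) complete the largest falls not named elsewhere.

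Some genes turned back on the second day. Both comparisons share the day 1 libraries, so that a chance deviation on day 1 moves a gene in opposite directions in them. Mras, a Ras-related GTPase, stood at 8.08 to 9.59 in controls, 4.93, 4.59 and 4.76 on day 1 and 6.15 and 6.70 on day 2. Kdelr3, which retrieves proteins to the endoplasmic reticulum, dropped by 3.02 on the log2 scale and then rose by 1.52 ± 0.31 (limma adjusted p = 0.0127). In the other direction, Rbm34, an RNA-binding protein with probe sets of opposite sign, stood at 6.63 to 7.31 in controls, 8.88, 8.90 and 8.92 on day 1 and 7.23 and 7.14 on day 2. Dancr, a noncoding RNA, and Slc27a2, a fatty acid transporter, also rose and then fell. The fall of Slc27a2 turned to 0.64 after its scan-day shift of -2.21 was subtracted. Its means without LIF were 6.7, 7.5 and 3.9 on days 1, 3 and 5. Cpt1a, which admits fatty acids to mitochondria, went down on both days, from 7.91 to 8.63 in controls to 5.20, 5.21 and 5.27 on day 1 and 4.14 and 2.92 on day 2. Ndrg2, a stress-responsive gene, and Lrrc2 did so as well, by 1.63 and 1.44 on the log2 scale on the second day. Ndrg2 shifted by -1.20 between scan days without LIF (means of 5.6, 6.3 and 4.6 on days 1, 3 and 5). After subtraction its difference was -0.43 (adjusted p = 0.42).

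Of the 75 named genes past the test, 40 also passed with all 18 libraries, 31 when scan day was a random block, 37 after subtraction of the scan-day shift, and 18 with each of the 5 RA libraries left out in turn. Subtraction of that shift also ended the calls, with differences over 1.5 times smaller, of Lingo3 (-0.78), Cpt1a (-1.06), Igf2 (1.14), Anxa1 (0.87), Krt8 (0.75), Tdgf1 (-0.43), Pecam1 (-0.54), Mcm7 (0.39), Slc2a3 (0.60), Mras (1.09) and Kdelr3 (0.69). Leaving out any 1 RA library ended the calls of Jade2, Btbd11, Naprt, Slc27a2, Dancr, Mras, Gli2, Pdgfra, Msmo1, Egr1 and Trap1a. None of the 75 passed in every setting. Crabp1, Serpinh1, Nsdhl, Chchd10 and Ncam1 passed in 16 of 18.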

How the data were processed

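Messenger RNA was measured in 18 RNA samples on chips A and B. The deposited intensities, 1 signal per probe set, are the output of MAS5 according to the submitters' processing notes (version not given in the sources used here), so the authors had summarised and scaled them. They are linear, and their trimmed mean is the same on all arrays of a chip, so no further normalization was applied. Pseudocounts of 4 (chip A) and 7 (chip B), 0.1 of the chip median, were added before log2. The brightest 60% of probe sets were tested (14900) with limma 3.58.1 in R 4.3.3, with arm and gate as terms, and p-values were adjusted within each chip. The median signal of the RA arrays was 42.7 to 46.2 on chip A and 66.3 to 76.3 on chip B, and precision is limited by how few arrays there are. The labels name no separate cultures, so p-values reflect only the variation among these libraries, perhaps technical. Genes used 1 probe set with 1 symbol, chip A before chip B, then the brightest. No probe set with 1 symbol was found for Gapdh. Scan days and chip lots came from the run records. On simulated chip A data with known changes the fit recovered 57.1% of changes of log2 size 1 and 96.9% of size 2. The simulated libraries had independent noise and no scan-day, chip lot, gate or 3' to 5' effect. These rates therefore do not cover the features that moved with the day here.

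The comparison, the 24 gene lists and the named genes were chosen with earlier results of these data known. Named genes are the 15 largest rises and falls past the test, the 4 lowest p-values of each list, up to 4 genes for each order of first-day and second-day change, and 29 fixed genes. Members of a list that passed are named as such, and other members that did not pass were chosen after their values were seen. Standard errors (±) are those of fitted log2 differences. Promoter sequences are from RefSeq (GRCm38.p6).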

Additional observations from a re-analysis of the deposited data

Results flagged for a closer look

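In 6 of the 125 named genes the medium and low gate pairs moved in opposite directions from day 1 to day 2 with RA. Each pair is 1 library against 1, so the difference between gates was not tested. Bcl3, a STAT3-responsive gene, differed by 1.71 in the medium gate and by -0.13 in the low gate (log2). Nanog differed by 0.23 and -0.59, Stra8 by 0.16 and -0.34, and Hoxb1 by 0.44 and -0.38. Gata4 differed by -0.03 and 0.49, and Actb, a cytoskeletal gene often used for reference, by -0.18 and 0.17. None of the 6 was past the test between the days.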

How the results depend on the processing

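Against 402 probe sets higher and 343 lower, 192 and 166 passed with all 18 libraries, 22 and 10 with the 5 RA libraries alone or the 4 matched ones (the high gate library then takes no part), 229 and 146 without the brightness filter, and 82 and 66 when scan day entered as a random block. With the 3' to 5' ratio of Gapdh or Actb as a covariate, chosen after seeing the data, they were 2 and 3 or 46 and 58. Leaving out each RA library in turn gave 36 to 233 higher and 35 to 159 lower, with the fewest without the low gate of day 2, whose lone partner is then assumed to vary like the other arms. Counts without a gate term (531 and 447), with a pseudocount of 1 (382 and 327) or 4 times larger (479 and 422), in the brightest 40% (467 and 482), after quantile normalization (382 and 353) and after subtraction of the scan-day shift (329 and 248) stayed within 1.5 times. After the subtraction these were largely other genes, since 410 genes passed and only 179 of the 530 called genes were among them. That subtraction turned the sign of Slc27a2 (0.64), Hes1 (-0.0471), Nefl (0.24) and Pdgfra (-0.61); the cause was not tested. No paired analysis was possible because the RA libraries carry no replicate numbers, other than pairing by gate, which is the fit of the 4 matched libraries given above (1 residual degree of freedom).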

Other observations

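3 further groups were put together after their values were seen, so their counts support nothing beyond description. Of 14 measured imprinted genes, which are expressed from 1 parental copy, 6 rose from day 1 to day 2 and none fell (median log2 difference 0.41, against 0.0002 over all genes). Beside Igf2 and Plagl1 these were Mest (0.89 ± 0.18), Peg3 (0.93 ± 0.17), Sgce (1.19 ± 0.21) and Ndn (0.61 ± 0.15). Mest stood at 9.80, 10.08 and 10.03 on day 1 and at 10.74 and 11.03 on day 2, while Cdkn1c (0.14 ± 0.21), Meg3 (-0.10 ± 0.51) and Grb10 (-0.86 ± 0.27) did not pass.

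All 12 measured hosts of small nucleolar RNAs, the noncoding genes whose introns release guides for ribosomal RNA modification, had a negative difference, with a median of -0.76. Of these 6 fell: Dancr, Epb41l4aos, Snhg5, Snhg6, Snhg7 and Zfas1. Zfas1 stood at 10.37, 10.37 and 10.41 on day 1 and at 9.38 and 9.06 on day 2, a difference of -1.14 ± 0.16 (limma adjusted p = 0.0055). Gas5, another host, differed by -0.01 ± 0.11. Of 14 genes of fatty acid synthesis and desaturation 4 rose and none fell (median 0.14). These were the desaturases Scd1 (1.48 ± 0.18), Fads1 (1.38 ± 0.17) and Fads2 (1.48 ± 0.26) and the elongase Elovl6 (0.67 ± 0.16), while the fatty acid synthase Fasn (0.06 ± 0.18) and the acetyl-CoA carboxylase Acaca (-0.08 ± 0.16) did not pass.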
